A study of Homo sapiens with 8 samples.

Results

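The genes described here encode core enzymes of glycolysis and the exporter of its end product lactate. The list held 10 genes, GPI, PFKP, PFKL, ALDOA, ALDOC, PGK1, ENO1, ENO2, LDHA and SLC16A3. Every probe set of these genes that the array annotation assigned to a single symbol was taken, which gave 21 probe sets of 9 genes among 41091 single-symbol probe sets of 19775 genes. SLC16A3, the lactate and proton cotransporter, had 0 single-symbol probe sets in the annotation used and was not analysed here. ENO1 had 4 probe sets, PGK1 had 6, ALDOA had 3, PFKP and PFKL had 2 each, and GPI, ALDOC, ENO2 and LDHA had 1 each.

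RNA was measured on 8 Affymetrix arrays from a pair of human breast cancer cell lines infected with lentiviruses and kept in puromycin. The 4 groups of 2 arrays were MDA-MB-231 cells carrying a hairpin against XBP1 (shXBP1), MDA-MB-231 cells carrying a control hairpin (shCtrl), T47D cells carrying shXBP1 and T47D cells carrying shCtrl. MDA-MB-231 is a basal-like line without oestrogen receptor, T47D is a luminal line with it, and XBP1 encodes a factor that switches on genes in the unfolded protein response. All 8 arrays came from cells held for 24 h in 0.1% oxygen in medium without glucose, so the shCtrl cells carried the same stress, and cells in normal oxygen with glucose were not analysed here. The labels call the 2 arrays of a group biological replicates and name no number of hairpin sequences, clones or separate infections.

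Glycolysis splits glucose into pyruvate in the cytosol and yields ATP without oxygen, and lactate dehydrogenase then turns pyruvate into lactate and restores the NAD+ that the pathway needs. In cells short of oxygen, HIF-1 is known to raise transcription of many of these genes, and it binds short sites with the core RCGTG. Several steps have isoenzymes with their own tissue patterns: ALDOC and ENO2 are best known from brain and neuroendocrine cells, while ALDOA and ENO1 are found in most tissues.

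The promoter sequences are shown for 4 genes whose values the results turn on: ENO1 and GPI, which fell in T47D, ALDOC, which fell in MDA-MB-231, and LDHA, which was called in neither line. Each is 1 RefSeq window of GRCh38.p14, 250 bases before to 50 after an annotated start, printed 5′ to 3′ on the strand of the gene. Capitals mark the letters ACGTG and GCGTG on either strand.
ENO1, chr1:8878637-8878936, - strand: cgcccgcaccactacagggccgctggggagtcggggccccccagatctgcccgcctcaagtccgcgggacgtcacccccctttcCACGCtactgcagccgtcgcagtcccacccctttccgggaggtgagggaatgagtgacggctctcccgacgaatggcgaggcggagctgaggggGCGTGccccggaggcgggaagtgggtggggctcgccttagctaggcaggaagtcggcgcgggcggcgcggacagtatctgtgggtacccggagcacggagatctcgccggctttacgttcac
GPI, chr19:34364742-34365041, + strand: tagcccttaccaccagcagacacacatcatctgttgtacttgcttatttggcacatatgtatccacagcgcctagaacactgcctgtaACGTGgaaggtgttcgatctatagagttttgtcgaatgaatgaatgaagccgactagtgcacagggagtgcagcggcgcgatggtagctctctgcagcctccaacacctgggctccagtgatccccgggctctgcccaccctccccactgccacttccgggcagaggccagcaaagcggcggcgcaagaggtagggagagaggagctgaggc
ALDOC, chr17:28576846-28577145, - strand: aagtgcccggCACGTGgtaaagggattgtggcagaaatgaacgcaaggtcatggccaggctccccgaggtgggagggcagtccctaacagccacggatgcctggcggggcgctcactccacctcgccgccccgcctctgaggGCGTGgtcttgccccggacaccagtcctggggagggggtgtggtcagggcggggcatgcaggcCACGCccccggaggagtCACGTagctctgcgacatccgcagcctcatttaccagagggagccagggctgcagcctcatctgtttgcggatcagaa
LDHA, chr11:18394313-18394612, + strand: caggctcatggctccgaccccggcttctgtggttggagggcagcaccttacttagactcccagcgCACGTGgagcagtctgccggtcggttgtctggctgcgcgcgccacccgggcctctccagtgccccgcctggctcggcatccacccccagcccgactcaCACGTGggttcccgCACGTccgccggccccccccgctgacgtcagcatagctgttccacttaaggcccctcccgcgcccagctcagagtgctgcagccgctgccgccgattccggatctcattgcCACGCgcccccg

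The letters ACGTG, counted on both strands and with overlaps, occurred in 9 of the 15 promoter windows of the 9 measured genes (60%), against 21.4% of all 35116 windows. Windows of the same gene are not independent: PFKP had 4, ALDOA had 3, the first of which overlaps the next, and LDHA had 2. LDHA had 5 such hits in the window shown and 0 in its other window, ALDOC had 3, GPI had 1 and ENO1 had 0. The palindrome CACGTG reads as ACGTG on both strands and therefore counted as 2 hits. The letters GCGTG occurred in 7 of the 15 windows (46.7%), against 36.5% of all windows, and the ENO1 window held 2 of them. The letters TGACGTG, which contain ACGTG and are known from elements bound by XBP1 and ATF6, occurred in 1 member window, of ALDOA, at a background of 1.97% of all windows. The letters CCACG, which end the ER stress element, occurred in 10 of the 15 windows, against 38.1% of all windows, and the whole element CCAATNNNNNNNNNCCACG in 0 of the 15, at a background of 0.0769%. These matches describe letters in the windows and no binding.

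XBP1 itself stood at 7.13 and 6.69 log2 units on the MDA-MB-231 shXBP1 arrays, against 10.83 and 10.69 on the MDA-MB-231 shCtrl arrays. In T47D it stood at 7.52 and 7.16 with shXBP1, against 12.41 and 12.56 with shCtrl. XBP1 was therefore 14.4-fold lower in MDA-MB-231 and 35.4-fold lower in T47D (limma, adjusted p = 6.93e-05 and 8.68e-06). With shCtrl, all 9 luminal markers on the list were lower in MDA-MB-231 than in T47D, and the 6 measured MDA-MB-231 markers were higher. Over all genes 25.2% were called lower and 23.7% higher in that comparison. With shXBP1, the luminal marker ESR1 stood at 4.91 and 4.96 in MDA-MB-231, against 10.59 and 10.67 in T47D. The luminal keratins KRT18 and KRT8 did not separate the lines in that way with shXBP1: KRT18 averaged 14.69 in MDA-MB-231 and 14.56 in T47D, and KRT8 averaged 13.68 and 13.76. Of the 9 luminal markers 1 was called under knockdown in MDA-MB-231 and 6 in T47D, and of the 6 MDA-MB-231 markers 1 and 2. Over all genes 17.2% were called under knockdown in MDA-MB-231 and 29.1% in T47D. The 4 measured leukocyte markers averaged 4.87 to 5.16 in MDA-MB-231 and 4.76 to 4.995 in T47D, and the 6 fibroblast markers averaged 6.05 to 6.16 and 5.90 to 6.06, near the median level of all probe sets of 5.957. The fibroblast marker COL1A1 was brighter, at 9.69 to 10.21 in MDA-MB-231 and 8.97 to 9.87 in T47D. Of the fibroblast markers 2 were called higher in MDA-MB-231 than in T47D with shCtrl, and 0 were called under knockdown in MDA-MB-231 and 1 in T47D. The 3′ minus 5′ signal of ACTB, a measure of RNA integrity, averaged 0.999 in MDA-MB-231 shXBP1, 1.26 in MDA-MB-231 shCtrl, 1.12 in T47D shXBP1 and 1.00 in T47D shCtrl. The part of these differences in the results was not tested.

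The glycolytic genes called under XBP1 knockdown were ALDOC in MDA-MB-231 and GPI, ALDOA and ENO1 in T47D, and all of these fell. In MDA-MB-231 that was 1 of 9 measured genes lower and 0 higher, and 17.2% of all genes were called there, 6.68% as lower and 10.6% as higher. In T47D it was 3 of 9 lower and 0 higher, and 29.1% of all genes were called there, 13.5% as lower and 15.5% as higher. A gene was called where limma's adjusted p, taken over all 19775 genes, was under 0.05. At an unadjusted p under 0.05, 2 genes were lower and 0 higher in MDA-MB-231, and 3 lower and 0 higher in T47D. The median log2 change of the 9 genes was 0.02 in MDA-MB-231, where that of all genes was 0.03, and -0.06 in T47D, where that of all genes was -0.02. For each gene the values below are those of its brightest probe set unless another is named, in log2 units, so that a step of 1 is a doubling. In such bulk RNA, fewer cells expressing a gene and less RNA per cell cannot be told apart.

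**Figure D1:**
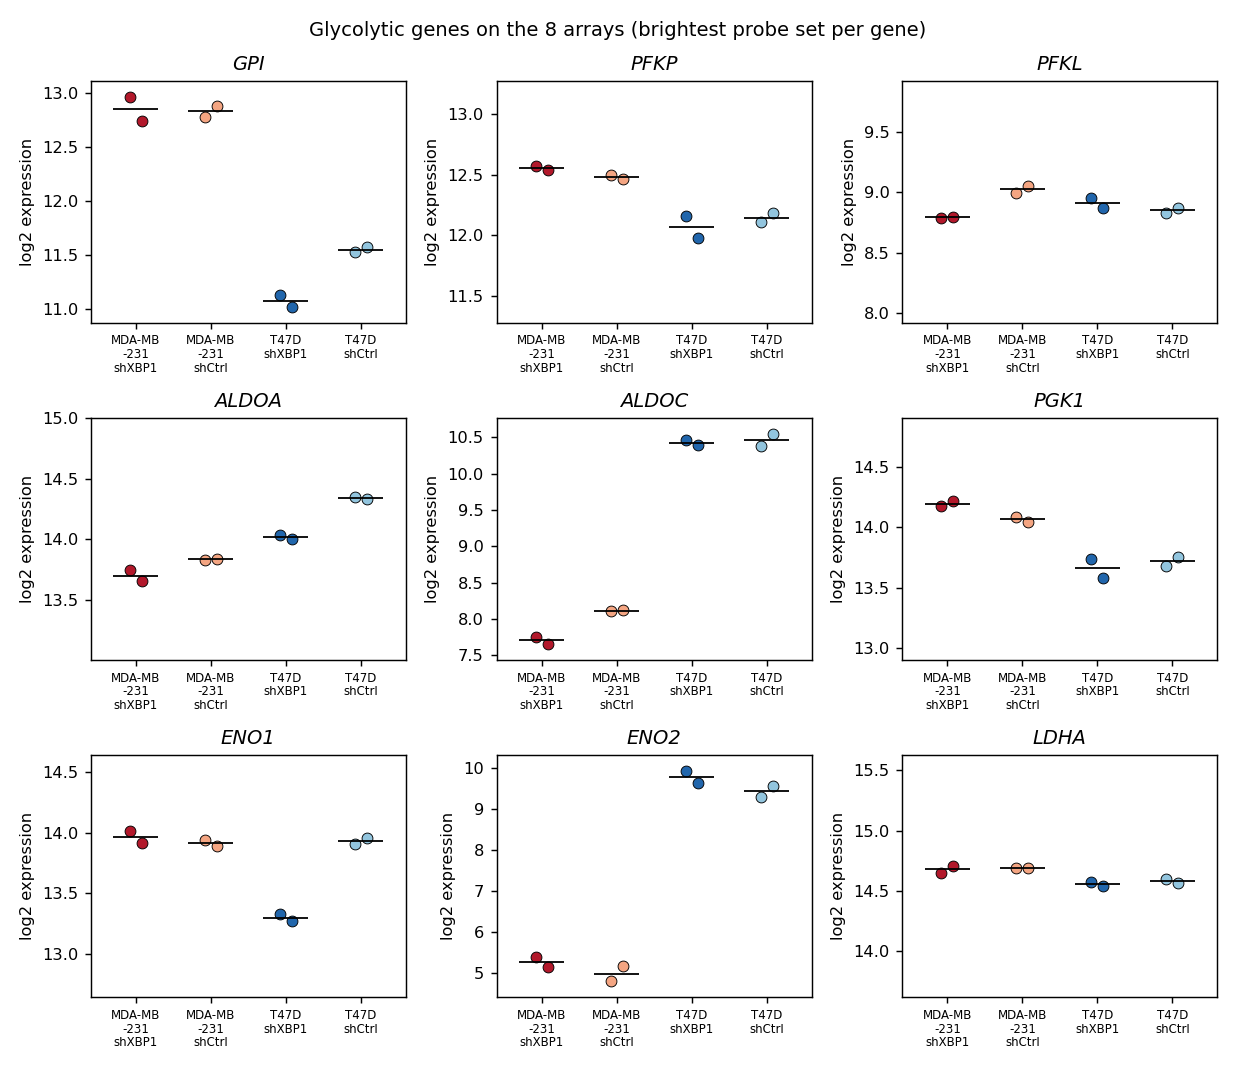
Log2 expression (y axis) of the brightest probe set of each of the 9 measured genes on the 8 arrays, by group (x axis). Points are arrays and lines are means of 2 arrays; each panel has its own range. ENO1 and GPI were lowest on the T47D shXBP1 arrays, and ALDOC and ENO2 were far lower in MDA-MB-231 than in T47D.

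GPI, phosphoglucose isomerase, turns glucose 6-phosphate into fructose 6-phosphate. It measured 12.96 and 12.74 on the MDA-MB-231 shXBP1 arrays, against 12.77 and 12.88 on the MDA-MB-231 shCtrl arrays. In T47D it measured 11.13 and 11.02 with shXBP1, against 11.53 and 11.57 with shCtrl. The MDA-MB-231 groups overlapped, while both T47D shXBP1 arrays lay below both T47D shCtrl arrays. The log2 change was 0.02 (SE 0.11, adjusted p = 0.920) in MDA-MB-231 and -0.48 (SE 0.11, adjusted p = 0.0115) in T47D by limma, and the T47D value is a 1.39-fold fall. The T47D call was lost without T47D shXBP1 replicate 2 (adjusted p = 0.0856) and without T47D shCtrl replicate 2 (adjusted p = 0.0620).

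PFKP and PFKL encode the platelet and liver forms of phosphofructokinase, the committed step of glycolysis. PFKP measured 12.58 and 12.54 on the MDA-MB-231 shXBP1 arrays, against 12.50 and 12.46 with shCtrl, and 12.16 and 11.98 on the T47D shXBP1 arrays, against 12.11 and 12.18 with shCtrl. Its log2 change was 0.08 in MDA-MB-231 (95% interval -0.14 to 0.30) and -0.08 in T47D (95% interval -0.30 to 0.14), neither of them called. The other PFKP probe set, 240202_x_at, lay between 4.26 and 4.81 on all arrays, below the median probe set, and was called in no comparison. PFKL measured 8.79 and 8.79 on the MDA-MB-231 shXBP1 arrays, against 8.99 and 9.05 with shCtrl, and 8.95 and 8.87 on the T47D shXBP1 arrays, against 8.83 and 8.87 with shCtrl. The MDA-MB-231 shXBP1 arrays were the lowest of all for this gene, and the T47D groups overlapped. The log2 change was -0.23 in MDA-MB-231 (SE 0.08, limma adjusted p = 0.106), not called, and 0.06 in T47D (SE 0.08, limma adjusted p = 0.654). The MDA-MB-231 value passed the threshold under both filters that removed dim genes (adjusted p = 0.0263 and 0.0325). Its second probe set, 201102_s_at, gave -0.25 in MDA-MB-231 and -0.07 in T47D, neither called. The brightest PFKL probe set, 211065_x_at, carries the suffix _x_at, which marks probes shared with other sequences.

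ALDOA and ALDOC encode isoenzymes of aldolase, which splits fructose bisphosphate into a pair of triose phosphates. ALDOA measured 13.75 and 13.65 on the MDA-MB-231 shXBP1 arrays, against 13.83 and 13.84 with shCtrl. The T47D values of ALDOA were 14.04 and 14.002 with shXBP1, against 14.35 and 14.33 with shCtrl. The shXBP1 arrays lay below the shCtrl arrays in both lines; over all genes, the arrays of shXBP1 and shCtrl lay without overlap for 54.5% in MDA-MB-231 and 64.1% in T47D. By limma the log2 change was -0.14 (SE 0.08, adjusted p = 0.334) in MDA-MB-231 and -0.32 (SE 0.08, adjusted p = 0.0215) in T47D, a 1.25-fold fall in T47D. All 3 ALDOA probe sets were called lower in T47D, with log2 changes of -0.43 to -0.32, and 0 in MDA-MB-231, with log2 changes of -0.14 to -0.11. All 3 carry the suffix _x_at, which marks probes shared with other sequences, and RefSeq names 2 ALDOA pseudogenes. The T47D call was lost without any 1 of the 4 T47D arrays (adjusted p = 0.0779 to 0.123).

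ALDOC measured 7.76 and 7.65 on the MDA-MB-231 shXBP1 arrays, against 8.11 and 8.12 on the MDA-MB-231 shCtrl arrays. The T47D values of ALDOC were 10.46 and 10.39 with shXBP1, against 10.38 and 10.54 with shCtrl. The groups were separate in MDA-MB-231 and overlapped in T47D. The log2 change was -0.41 (SE 0.09, limma adjusted p = 0.0240) in MDA-MB-231, a 1.33-fold fall, and -0.04 (SE 0.09, adjusted p = 0.818) in T47D. The MDA-MB-231 call was lost without any 1 of the 4 MDA-MB-231 arrays (adjusted p = 0.0512 to 0.0872).

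PGK1, phosphoglycerate kinase, makes the first ATP of the payoff stage. Its brightest probe set measured 14.17 and 14.22 on the MDA-MB-231 shXBP1 arrays, against 14.09 and 14.05 with shCtrl, and 13.74 and 13.59 on the T47D shXBP1 arrays, against 13.69 and 13.76 with shCtrl. The log2 change was 0.13 in MDA-MB-231 (95% interval -0.08 to 0.34) and -0.06 in T47D (95% interval -0.27 to 0.16), neither called. The arrays of the groups lay apart in MDA-MB-231 and overlapped in T47D. The 6 PGK1 probe sets ranged between -0.65 and 0.31 in MDA-MB-231 and between -0.40 and 0.01 in T47D, so the probe sets of this gene disagreed. Probe set 227068_at measured 12.10 and 12.17 on the MDA-MB-231 shXBP1 arrays, against 11.99 and 12.00 with shCtrl. In T47D the same probe set measured 10.77 and 10.66 with shXBP1, against 11.11 and 11.12 with shCtrl, a log2 change of -0.40 (limma adjusted p = 0.0166 over probe sets) whose call was lost without any 1 of the 4 T47D arrays (adjusted p = 0.0564 to 0.125). Probe set 1558365_at measured 6.04 and 6.29 on the MDA-MB-231 shXBP1 arrays, against 6.81 and 6.82 with shCtrl, a log2 change of -0.65 (limma adjusted p = 0.00901 over probe sets) whose call was lost when MDA-MB-231 shXBP1 replicate 1 was dropped from the fit (adjusted p = 0.0517). It lies close to the median level of all probe sets. The 3 brightest PGK1 probe sets were called under knockdown in neither line.

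ENO1, alpha-enolase, makes phosphoenolpyruvate, and it had the largest knockdown change among the brightest probe sets of the 9 genes. It measured 14.01 and 13.91 on the MDA-MB-231 shXBP1 arrays, against 13.94 and 13.89 on the MDA-MB-231 shCtrl arrays. In T47D it measured 13.33 and 13.27 with shXBP1, against 13.91 and 13.96 with shCtrl. The T47D shXBP1 arrays stood apart from the other 6, which lay within 13.89 and 14.01. The log2 change was 0.05 (SE 0.09, limma adjusted p = 0.758) in MDA-MB-231 and -0.63 (SE 0.09, limma adjusted p = 0.00114) in T47D, a 1.55-fold fall. The T47D call was kept without each of the 8 arrays in turn.

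The ENO1 probe sets fell into 2 patterns. The log2 change of probe set 217294_s_at was 0.14 in MDA-MB-231 and -0.75 in T47D. That of probe set 216554_s_at was -0.14 in MDA-MB-231 and -0.66 in T47D. Like the brightest probe set, both were called in T47D and not in MDA-MB-231. Probe set 240258_at measured 6.98 and 6.88 on the MDA-MB-231 shXBP1 arrays, against 9.21 and 9.30 on the MDA-MB-231 shCtrl arrays. In T47D it measured 8.66 and 8.36 with shXBP1, against 10.07 and 10.06 with shCtrl. The shXBP1 arrays were lower in both lines, by 5.01-fold in MDA-MB-231 (log2 change -2.32, SE 0.12, limma adjusted p = 7.00e-05) and by 2.94-fold in T47D (log2 change -1.55, SE 0.12, limma adjusted p = 0.000102). The place of its target within ENO1 was not looked up here, and RefSeq lists an intronic transcript name, ENO1-IT1, among the synonyms of ENO1. Averaging the 4 probe sets gave an ENO1 change of -0.57 in MDA-MB-231 (limma adjusted p = 0.00602), whereas averaging the other 3, an alternative chosen after seeing the data, gave 0.02 (limma adjusted p = 0.939), so the value in MDA-MB-231 rested on 240258_at. In T47D the average of the other 3 was -0.68 (limma adjusted p = 0.00159). RefSeq names 4 ENO1 pseudogenes, and 3 of the 4 probe sets carry the suffix _s_at, which marks probes matching several transcripts.

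**Figure D2:**
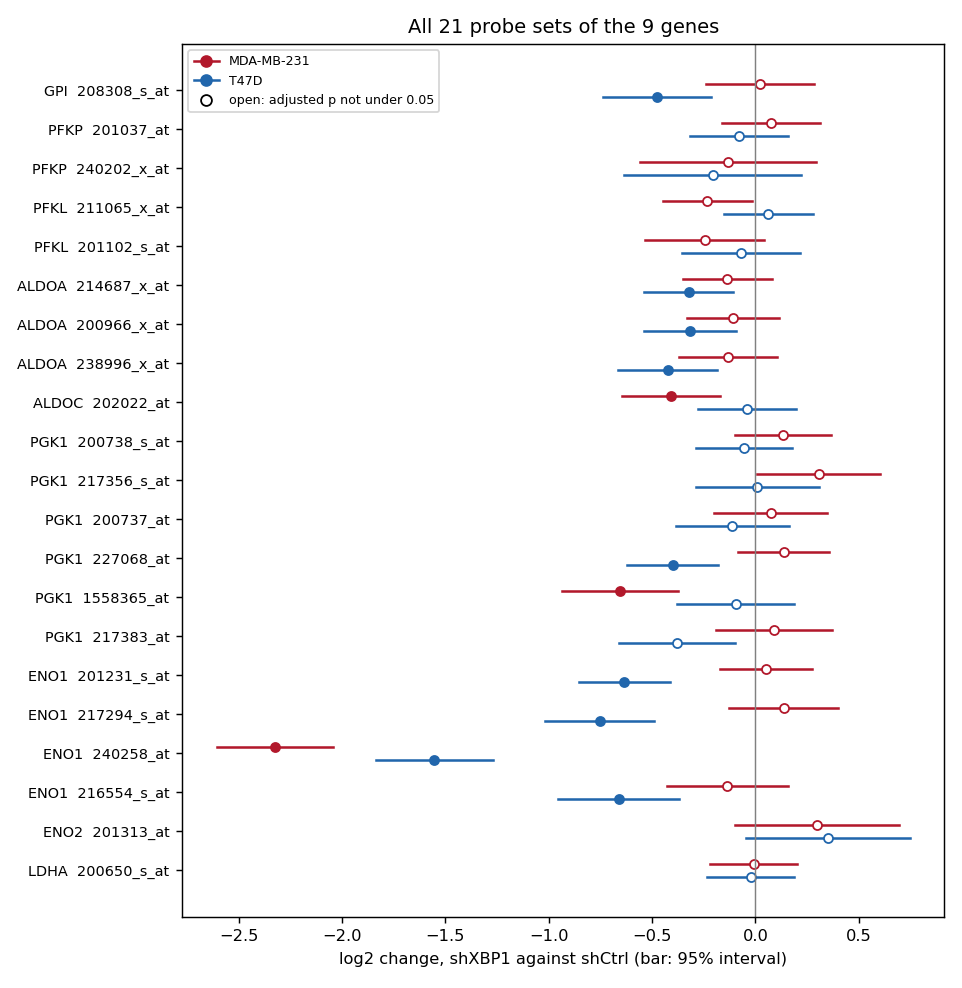
Log2 change of shXBP1 against shCtrl (x axis) for all 21 probe sets of the 9 genes, with MDA-MB-231 above T47D in each row. Points are estimates, bars are 95% intervals from limma, and open points had adjusted p not under 0.05. ENO1 probe set 240258_at fell by 2.32 in MDA-MB-231 and by 1.55 in T47D, while the other 3 ENO1 probe sets fell in T47D with no call in MDA-MB-231.

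ENO2, the neuronal enolase, measured 5.40 and 5.15 on the MDA-MB-231 shXBP1 arrays, against 4.80 and 5.16 with shCtrl. The T47D values of ENO2 were 9.92 and 9.63 with shXBP1, against 9.29 and 9.56 with shCtrl. Its log2 change was 0.30 (SE 0.17, limma adjusted p = 0.299) in MDA-MB-231 and 0.35 (SE 0.17, limma adjusted p = 0.180) in T47D, neither called. The 95% intervals, -0.10 to 0.69 in MDA-MB-231 and -0.05 to 0.75 in T47D, were the widest of the 9 genes and held both 0 and a rise as large as the ENO1 fall in T47D.

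LDHA, the lactate dehydrogenase subunit that favours lactate formation, measured 14.65 and 14.71 on the MDA-MB-231 shXBP1 arrays, against 14.69 and 14.69 with shCtrl. The T47D values of LDHA were 14.58 and 14.54 with shXBP1, against 14.60 and 14.56 with shCtrl. The log2 change was -0.01 in MDA-MB-231 (95% interval -0.20 to 0.18) and -0.02 in T47D (95% interval -0.21 to 0.17). All 8 values lay near the top of the scale, whose highest value over all probe sets was 15.61, and compression of bright signals was not tested. RefSeq names 6 LDHA pseudogenes.

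Over all 21 probe sets, 3 were called lower and 0 higher in MDA-MB-231, where 15.8% of all probe sets were called (8.03% lower, 7.80% higher). In T47D 9 were lower and 0 higher, where 24.3% were called (11.0% lower, 13.2% higher). The 3 in MDA-MB-231 were ALDOC 202022_at, PGK1 1558365_at and ENO1 240258_at. The 9 in T47D were GPI 208308_s_at, the 3 of ALDOA, PGK1 227068_at and the 4 of ENO1. Probe sets of a gene share its transcript and are not independent.

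Whether the knockdown effect differed between the lines was tested as the effect in MDA-MB-231 minus that in T47D. Of the 9 genes 2 were called, ENO1 and GPI, both with a positive difference, from a fall in T47D and no call in MDA-MB-231. The background was 24.8% of all genes called, 13.0% as higher and 11.8% as lower. For ENO1 the difference was 0.68 (SE 0.12, limma adjusted p = 0.00557), from effects of 0.05 in MDA-MB-231 and -0.63 in T47D. Averaging all 4 ENO1 probe sets gave 0.33 (limma adjusted p = 0.124), which ended the call, and averaging the 3 without 240258_at gave 0.70 (limma adjusted p = 0.00947). For GPI it was 0.50 (SE 0.15, limma adjusted p = 0.0467), and the call was lost in 7 of the 8 fits that left out an array and in the fit over single probe sets (adjusted p = 0.0628). The difference was -0.37 for ALDOC (limma adjusted p = 0.0865) and -0.29 for PFKL (limma adjusted p = 0.116), neither called. Both passed the threshold under the filters that removed dim genes (limma adjusted p = 0.0268 and 0.0327 for ALDOC, 0.0318 and 0.0377 for PFKL), and ALDOC also with trend and robust fitting (limma adjusted p = 0.0414), so these calls depended on the setting. The ALDOA difference was 0.19 (95% interval -0.09 to 0.46) and the LDHA difference 0.01 (95% interval -0.25 to 0.28).

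Among the 21 probe sets, 3 differences were called higher and 1 lower, where 21.1% of all probe sets were called, 9.67% as higher and 11.5% as lower. The higher ones were ENO1 201231_s_at at 0.68, ENO1 217294_s_at at 0.89 (limma adjusted p = 0.00636) and PGK1 227068_at at 0.54 (limma adjusted p = 0.0243). The lower one was ENO1 240258_at at -0.77 (SE 0.17, limma adjusted p = 0.0155). ENO1 probe sets thus differed between the lines in opposite directions.

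The lines were then compared at equal hairpin. With shXBP1, 4 of the 9 genes were higher in MDA-MB-231 than in T47D and 3 lower, where 50.8% of all genes were called, 25.9% as higher and 25.0% as lower. With shCtrl, 3 were higher and 3 lower, where 49.0% of all genes were called, 23.7% as higher and 25.2% as lower. ENO2 was lower in MDA-MB-231, with a log2 difference of -4.49 with shXBP1 and -4.44 with shCtrl (limma adjusted p = 3.77e-07 with shCtrl). Its MDA-MB-231 values lay below the median of all probe sets and no detection calls were used here, so no fold is given for it. ALDOC was 6.58-fold lower in MDA-MB-231 with shXBP1 and 5.09-fold lower with shCtrl (log2 difference -2.35, limma adjusted p = 4.8e-07).

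GPI was 3.43-fold higher in MDA-MB-231 than in T47D with shXBP1 and 2.43-fold higher with shCtrl (limma adjusted p = 3.26e-06 and 2.21e-05). PGK1 was 0.53 log2 units higher in MDA-MB-231 with shXBP1 (limma adjusted p = 0.00142) and 0.35 with shCtrl (limma adjusted p = 0.0142). PFKP was 0.49 log2 units higher with shXBP1 (limma adjusted p = 0.00270) and 0.34 with shCtrl (limma adjusted p = 0.0188). The PFKP and PGK1 calls with shCtrl were each lost without some arrays, PFKP in 3 fits and PGK1 in 2, and no PFKP call between the lines was kept when its probe sets were averaged. ALDOA was lower in MDA-MB-231, with a log2 difference of -0.32 with shXBP1 and -0.51 with shCtrl (limma adjusted p = 0.0124 and 0.00115), and the shXBP1 call was lost without 3 of the arrays (adjusted p = 0.0502 to 0.0756). PFKL and LDHA were called in neither comparison of the lines, with PFKL differences of -0.12 with shXBP1 and 0.17 with shCtrl and LDHA differences of 0.12 and 0.11. LDHA passed the threshold with trend and robust fitting (limma adjusted p = 0.0101 with shXBP1 and 0.0217 with shCtrl), and PFKL with shCtrl under both filters on dim genes (limma adjusted p = 0.0428 and 0.0479).

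ENO1 was 0.66 log2 units higher in MDA-MB-231 with shXBP1 (limma adjusted p = 0.00028) and differed by -0.02 with shCtrl (95% interval -0.22 to 0.18). Averaging its 4 probe sets gave 0.18 with shXBP1 (limma adjusted p = 0.165). Probe set 240258_at ran the other way, lower in MDA-MB-231 with log2 differences of -1.58 with shXBP1 and -0.81 with shCtrl (limma adjusted p = 1.13e-05 and 0.000682). Of the 6 PGK1 probe sets, 5 were called higher in MDA-MB-231 with shXBP1 and 5 with shCtrl. Over all 21 probe sets, 10 were higher and 5 lower in MDA-MB-231 with shXBP1, where 46.0% of all were called, 23.0% in each direction. With shCtrl 7 were higher and 6 lower, where 44.4% were called, 22.8% as higher and 21.6% as lower.

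**Figure D3:**
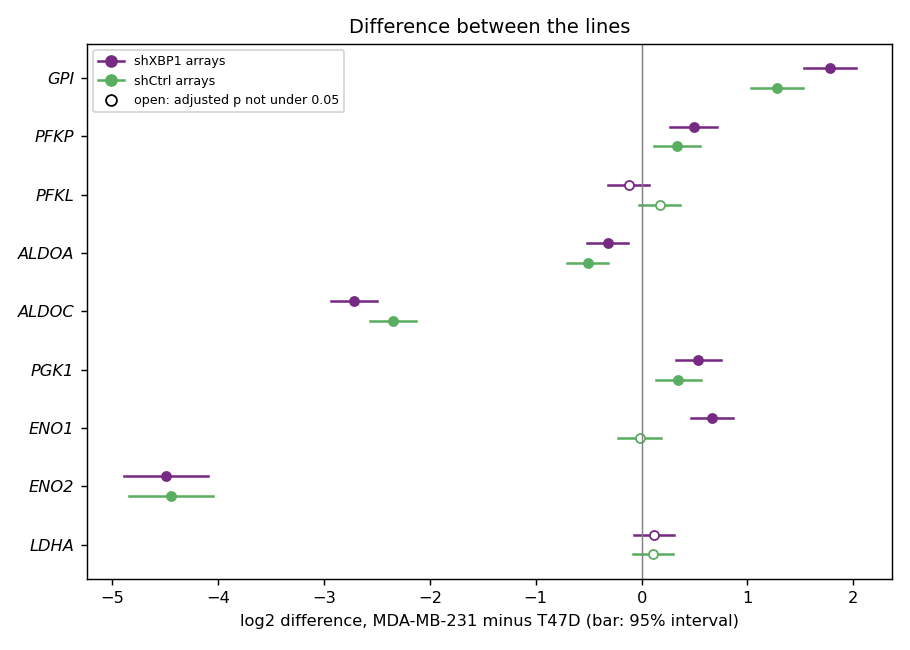
Log2 difference of MDA-MB-231 minus T47D (x axis) for the brightest probe set of the 9 genes, with the shXBP1 arrays above the shCtrl arrays in each row. Points are estimates, bars are 95% intervals from limma, and open points had adjusted p not under 0.05. ENO2 and ALDOC lay far to the left, GPI to the right, and ENO1 at 0.66 with shXBP1 and -0.02 with shCtrl.

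The order of the group means differed between genes. For ENO1 the MDA-MB-231 shXBP1, T47D shCtrl and MDA-MB-231 shCtrl means of 13.96, 13.93 and 13.91 were neighbours without a called difference between shXBP1 and shCtrl in MDA-MB-231 or between the shCtrl lines, and T47D shXBP1 at 13.30 was lowest. For GPI the MDA-MB-231 groups, at 12.85 with shXBP1 and 12.83 with shCtrl, were above T47D shCtrl at 11.55, with T47D shXBP1 lowest at 11.07. For ALDOA T47D shCtrl was highest at 14.34, then T47D shXBP1 at 14.02, MDA-MB-231 shCtrl at 13.83 and MDA-MB-231 shXBP1 at 13.70, the last pair without a called difference and the middle pair not compared. For ALDOC the T47D groups, 10.42 with shXBP1 and 10.46 with shCtrl, had no called difference, and MDA-MB-231 shXBP1 at 7.71 was below MDA-MB-231 shCtrl at 8.11. For ENO2 the T47D groups, 9.77 with shXBP1 and 9.42 with shCtrl, were above the MDA-MB-231 groups, 5.28 with shXBP1 and 4.98 with shCtrl, with no called difference within a line. PGK1 and PFKP had the reverse order of the lines, with PGK1 means of 14.20 and 14.07 in MDA-MB-231 and 13.66 and 13.72 in T47D, each with shXBP1 given before shCtrl, and likewise no called difference within a line.

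The rest of the pathway was read from a list of 20 other glycolytic and lactate genes, of which 17 were measured. In MDA-MB-231 2 rose and 1 fell under knockdown, with a median log2 change of -0.04, and in T47D 2 rose and 7 fell, with a median of -0.09. Over all genes 10.6% were called higher and 6.68% lower in MDA-MB-231, and 15.5% higher and 13.5% lower in T47D. The 2 that rose in MDA-MB-231 were HK1, by 0.38, and ADPGK, which averaged 10.64 with shXBP1 and 10.10 with shCtrl. The HK1 call was lost with only the 4 MDA-MB-231 arrays (limma adjusted p = 0.105). ADPGK also rose in T47D, by 0.33, a call lost over single probe sets (limma adjusted p = 0.0589). PGAM2, called lower in T47D, lay between 5.26 and 5.87 on all arrays, below the median probe set of 5.957. In T47D PGAM1, phosphoglycerate mutase, fell by 0.85 on the log2 scale (limma adjusted p = 0.000256). TPI1, triose-phosphate isomerase, fell by 0.81 (limma adjusted p = 0.000362), and LDHB, the other lactate dehydrogenase subunit, fell by 0.79 (limma adjusted p = 0.000538). GAPDH, the dehydrogenase between TPI1 and PGK1, had log2 changes of -0.03 in MDA-MB-231, not called, and -0.51 in T47D (limma adjusted p = 0.00266). PKM, pyruvate kinase, had log2 changes of -0.01 in MDA-MB-231, not called, and -0.48 in T47D (limma adjusted p = 0.00634), a call lost without T47D shXBP1 replicate 2 (limma adjusted p = 0.0557).

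HK2, the hexokinase that starts the pathway, measured 10.43 and 10.25 on the MDA-MB-231 shXBP1 arrays, against 11.51 and 11.20 with shCtrl. In T47D it measured 12.83 and 12.84 with shXBP1, against 11.92 and 12.02 with shCtrl. It fell by 1.02 in MDA-MB-231 and rose by 0.86 in T47D (limma adjusted p = 0.00161 and 0.00145), a difference of -1.88 (adjusted p = 0.000427). The dimmer HK2 probe sets gave other values: 222305_at had log2 changes of -0.51 in MDA-MB-231 and -0.52 in T47D, and 239410_at of 0.09 in MDA-MB-231 and -1.06 in T47D, both called lower in T47D and neither in MDA-MB-231. The mean of the 3 HK2 probe sets was -0.24 in T47D (limma adjusted p = 0.0765), which ended the call and turned its direction. With the same mean the difference between the lines was -0.24 (limma adjusted p = 0.194) and was no longer called. PKM probe sets also disagreed, since 213700_s_at had log2 changes of -1.38 in MDA-MB-231 (limma adjusted p = 0.000199) and -0.05 in T47D. All 3 GAPDH and all 3 TPI1 probe sets were called lower in T47D and none in MDA-MB-231. Over all probe sets 11.0% were called lower in T47D and 8.03% in MDA-MB-231. TPI1 210050_at lay below the median probe set of 5.957 in T47D, at 3.67 and 3.58 with shXBP1, against 4.51 and 4.29 with shCtrl. All 3 GAPDH probe sets and TPI1 200822_x_at carry the suffix _x_at, which marks probes shared with other sequences.

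The difference in knockdown effect, MDA-MB-231 minus T47D, was called for 8 of the 17 genes, 7 with a positive difference and 1 with a negative. Of all genes 24.8% were called, 13.0% as higher and 11.8% as lower. The calls for BSG, GAPDH, HK1 and PKM were each lost without some arrays, and averaging probe sets ended that of HK2 and turned that of PKM to -0.43. LDHB at 0.71, TPI1 at 0.70 and PGAM1 at 0.59 were the largest of the 7 positive differences (limma adjusted p = 0.00617, 0.00513 and 0.00935). Each came from a larger fall in T47D than in MDA-MB-231. Between the lines, LDHB was 5.80 log2 units higher in MDA-MB-231 with shXBP1 and 5.09 with shCtrl, and ENO3, the muscle enolase, 2.20 and 2.39. HK1 was lower in MDA-MB-231, with log2 differences of -3.27 with shXBP1 and -3.82 with shCtrl. SLC16A1, the other main lactate transporter, had no single-symbol probe set in the annotation used and was not analysed here. BSG, the chaperone of both lactate transporters, had a log2 change of 0.05 in MDA-MB-231, not called, and fell by 0.44 in T47D (limma adjusted p = 0.00690), a call lost when T47D shXBP1 replicate 2 was dropped (limma adjusted p = 0.0504).

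**Figure D4:**
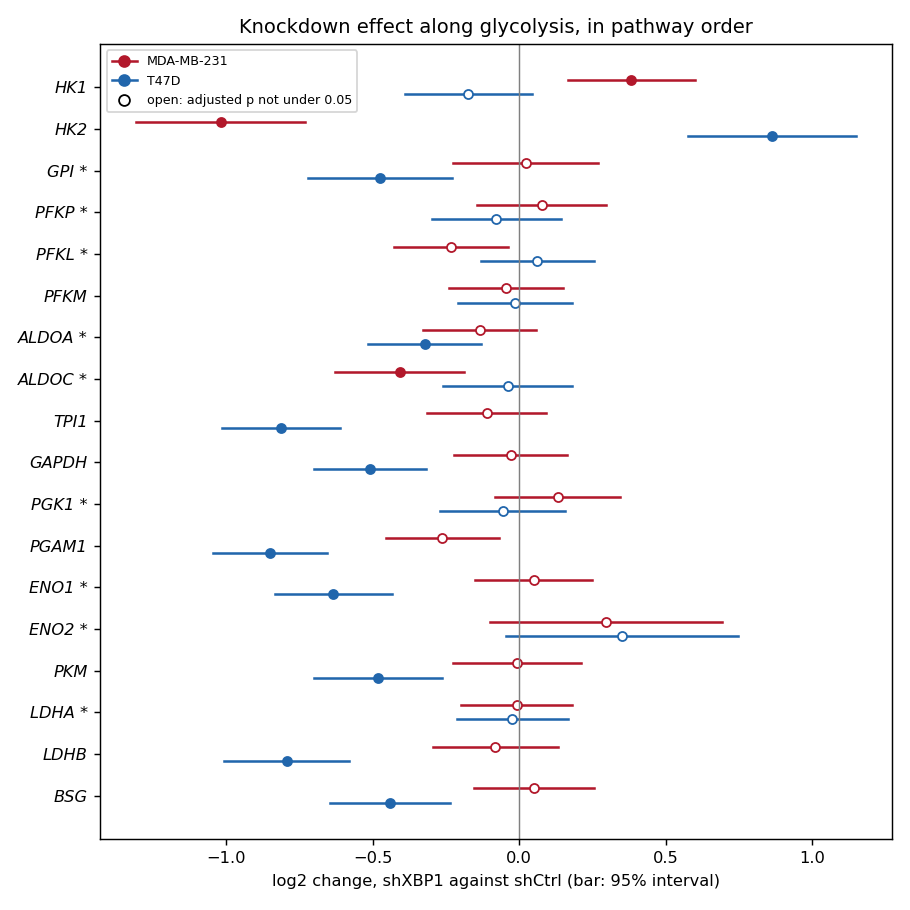
Log2 change of shXBP1 against shCtrl (x axis) for 18 genes in pathway order, with MDA-MB-231 above T47D in each row and the 9 genes of the list marked by a star. Points are estimates for the brightest probe set, bars are 95% intervals from limma, and open points had adjusted p not under 0.05. The T47D points of GPI, ALDOA, TPI1, GAPDH, PGAM1, ENO1, PKM, LDHB and BSG lay below 0 with a call, and HK2 moved in opposite directions.

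Pathways that branch from glycolysis were read in the same way, against the shares of all genes called, which were 10.6% higher and 6.68% lower in MDA-MB-231 and 15.5% higher and 13.5% lower in T47D. Of 7 genes for pyruvate entry into mitochondria, 0 rose and 1 fell in MDA-MB-231, and 1 rose and 4 fell in T47D, with median log2 changes of -0.22 and -0.57. PDHX, a subunit of the pyruvate dehydrogenase complex, fell by 0.99 on the log2 scale in MDA-MB-231 and fell by 0.67 in T47D (limma adjusted p = 0.000692 and 0.00160), and the subunits PDHA1, DLAT and PDHB fell in T47D, with log2 changes of -0.80, -0.70 and -0.57. MPC2, a subunit of the mitochondrial pyruvate carrier, had a log2 change of 0.33 in T47D, whose call was lost without any 1 of the 4 T47D arrays (limma adjusted p = 0.0549 to 0.111). Of 6 gluconeogenic genes, 1 rose and 0 fell in MDA-MB-231, namely PCK2 at 0.41 (limma adjusted p = 0.0497), with a median log2 change of 0.11. The PCK2 call was lost over single probe sets (limma adjusted p = 0.0596), with the replicate block (limma adjusted p = 0.0759), with only the 4 MDA-MB-231 arrays (limma adjusted p = 0.120) and in 7 of the 8 fits without 1 array (limma adjusted p = 0.0597 to 0.196). In T47D 0 rose and 3 fell, with a median of -0.60 and log2 changes of -0.96 for G6PC3, -0.82 for PC and -0.79 for PCK1. PCK1 lay between 3.37 and 4.36 on all arrays, below the median probe set of 5.957, and no detection calls were used here. FBP1, which opposes phosphofructokinase, was lower in MDA-MB-231 than in T47D, with log2 differences of -2.74 with shXBP1 and -3.20 with shCtrl. Its MDA-MB-231 values, 5.88 to 6.61, lay near the median probe set, so the size of these differences is uncertain.

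Of 7 pentose phosphate genes 6 were measured, and 3 rose and 0 fell in MDA-MB-231 while 3 rose and 1 fell in T47D, with medians of 0.44 and 0.08, where all genes were called higher at 10.6% in MDA-MB-231 and 15.5% in T47D and lower at 6.68% and 13.5%. RPIA, ribose 5-phosphate isomerase, rose by 1.13 in MDA-MB-231 and by 0.86 in T47D (limma adjusted p = 0.000708 and 0.000902), PGLS by 0.59 and 0.43, and RPE by 0.54 and 0.35, while TALDO1, transaldolase, fell by 0.38 in T47D. The T47D calls of PGLS, RPE and TALDO1 were each lost without at least 3 of the 4 T47D arrays, left out one at a time (limma adjusted p = 0.0531 to 0.113), and that of RPE also when its probe sets were averaged (limma adjusted p = 0.160). Of 9 glycogen genes 8 were measured, read against those shares of all genes. In MDA-MB-231 2 rose and 0 fell, and in T47D 0 rose and 6 fell, with medians of 0.20 and -0.34. The 2 that rose in MDA-MB-231 were UGP2 and PYGL. UGP2 rose there by 0.47 with its brightest probe set. Its other probe set, 232180_at, had a log2 change of -0.92 there (limma adjusted p = 0.00690 over probe sets). Averaging the UGP2 probe sets gave -0.22 in MDA-MB-231 (limma adjusted p = 0.193), which ended the call and turned its direction. The T47D calls of PGM1 (-0.34 to -0.28) and UGP2 (-0.36 to -0.31) were lost without any 1 of the 4 T47D arrays. That of PYGB (-0.38 to -0.27) was lost without T47D shCtrl replicate 2 or either T47D shXBP1 array. The PGM2 call was lost without T47D shXBP1 replicate 1 (-0.39). GYG1, also called lower in T47D, averaged 11.65 there with shXBP1, against 12.12 with shCtrl. Averaging probe sets also ended the UGP2 call in T47D (-0.29, limma adjusted p = 0.0781). PYGL, glycogen phosphorylase, measured 10.88 and 10.85 on the MDA-MB-231 shXBP1 arrays, against 10.35 and 10.48 with shCtrl, and 8.18 and 8.18 on the T47D shXBP1 arrays, against 9.69 and 9.69 with shCtrl. It rose by 0.45 in MDA-MB-231 and fell by 1.51 in T47D (limma adjusted p = 0.0109 and 3.37e-05), a difference of 1.96 (adjusted p = 0.000124). The MDA-MB-231 call was lost with only its 4 arrays (limma adjusted p = 0.0636) and without MDA-MB-231 shCtrl replicate 1 (limma adjusted p = 0.0648).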

How the data were processed

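Total RNA of 8 samples was hybridised to Affymetrix arrays. The authors deposited 1 table of log2 values for 54675 probe sets, made with RMA in affy 1.30.0, per the submitters' processing notes; no source used here names the arrays normalized together or a batch. Arrays give no read depth, so their number limits the precision.

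Groups came from the sample titles, and 0 sample columns were left unused. Probe sets were named from GEO's platform annotation: 41091 had 1 symbol, after 6 control probe sets were left out, and 1801 had several symbols and were not named. For each of 19775 genes the brightest single-symbol probe set, by its mean over the 8 arrays, was tested; all probe sets were also tested on their own. limma 3.58.1 in R 4.3.3 fitted 4 group means with 1 spread per gene (7.61 degrees of freedom after moderation, median SE of a knockdown effect 0.119 and of a difference of effects 0.168), two-sided, with Benjamini-Hochberg adjustment over all genes or all probe sets and a threshold of 0.05. With 2 arrays on each side, the smallest p of an exact permutation test is 0.333. Replicates correlated at 0.9957 to 0.9977 over the brightest probe sets of the 19775 genes. The spread behind each p-value is that between these arrays, which may be technical. The fit was tested on simulated data.

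Named genes were XBP1, all members and their probe sets, GAPDH, PKM, HK2, LDHB, SLC16A1 and FBP1. From each pathway list up to 4 called genes with the largest knockdown change in each line were also named. For the comparisons between the lines only some called genes of the lists were named. BSG and PGAM2 were added after their values were seen, and further called genes such as MPC2 and PGM1 were also named. The probe sets of HK2, PKM, GAPDH and TPI1 were set side by side after their values were seen. The members and lists were chosen with earlier results of these data known. Promoter windows are RefSeq's; 9 of 9 measured genes matched. Gene names of RefSeq were used for synonyms and pseudogenes. Alternatives were filters on dim genes (above 7 on at least 2 arrays, or a mean at or above the median), probe-set averaging, re-normalization, other variance settings, a replicate block and leaving out each array.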

Additional observations from a re-analysis of the deposited data

Results flagged for a closer look

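For 5 values the knockdown effect differed between the lines by limma's test of the difference, taken as MDA-MB-231 minus T47D. They were ENO1 at 0.68 and GPI at 0.50 for the brightest probe sets, and PGK1 probe set 227068_at at 0.54, ENO1 probe set 217294_s_at at 0.89 and ENO1 probe set 240258_at at -0.77. The first 4 came from a lower T47D value with shXBP1 and no call in MDA-MB-231. The last came from falls in both lines, with log2 changes of -2.32 in MDA-MB-231 and -1.55 in T47D, and was lost without T47D shXBP1 replicate 1 (-0.62, adjusted p = 0.0568). The PGK1 227068_at difference was lost without any 1 of 7 of the 8 arrays (adjusted p = 0.0518 to 0.103).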

How the results depend on the processing

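With 2 arrays a group, calls near the threshold were fragile. The ENO1 fall in T47D was kept in every leave-out, and the counts of called members ranged from 0 to 1 in MDA-MB-231, 1 to 3 in T47D, 1 to 2 for the difference of effects, 6 to 7 between the lines with shXBP1 and 4 to 6 with shCtrl when 1 array was left out. For probe sets the ranges were 1 to 3, 4 to 9, 3 to 5, 13 to 15 and 9 to 13 in that order. The MDA-MB-231 knockdown count of 1 member became 2 with the mean over probe sets, with either filter on dim genes and with trend and robust fitting, and 0 with only the 4 arrays compared; trend and robust fitting called 5 of its probe sets. The count of 2 for the difference became 1 with the mean over probe sets, with every probe set on its own, with quantile normalization applied again and with the replicate block, and 4 with either filter and with trend and robust fitting; those 3 settings called 8 probe sets. All genes called in MDA-MB-231 numbered 3410, but 1897 with only its 4 arrays, 2063 without MDA-MB-231 shCtrl replicate 1 and 2152 without MDA-MB-231 shXBP1 replicate 1. Averaging probe sets reversed ENO1 in MDA-MB-231 (-0.57), HK2 in T47D (-0.24), UGP2 in MDA-MB-231 (-0.22) and between the lines with shXBP1 (-0.26), the PKM difference (-0.43) and PGD between the lines with shCtrl (0.085); single probe sets of ENO1, HK2, UGP2 and PKM gave opposite signs in at least 1 of these comparisons, and for PGD the cause was not tested. Groups share replicate numbers, and the differences between their replicates correlated between -0.069 and 0.038 from group to group. That shows no large shared replicate effect. It cannot tell whether arrays of the same number were handled together, which the labels do not say. With the replicate block 1 member was called in MDA-MB-231, 3 in T47D and 1 for the difference. Over all genes that fit called 2941 in MDA-MB-231 and 5421 in T47D.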
